A study of Saccharomyces cerevisiae YPS1009 with 18 samples.

Results

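The genes described here encode the yeast kinetochore and the spindle assembly checkpoint, read out as barcoded plasmids in a pooled screen. They are a list of 43 genes given by systematic name, and members were the rows of the plasmid table that carry these names. Of the 43 genes, 35 had a plasmid, in 37 of the 4872 rows of the table, because CSE4 and BUB3 each had a pair of plasmids. The BUB1 plasmid had 0 counts in all 18 libraries, so 36 plasmids of 34 genes were tested among 4508 plasmids in all. DAD3, DAD4 and HSK3 of the DASH complex, BIR1 of the IPL1 complex, the checkpoint gene MAD2, and OKP1, MCM21 and CTF3 of the COMA and CTF19-linked group were not analysed here.

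The kinetochore is the protein assembly that forms on the centromere and holds it to a spindle microtubule. In budding yeast it is built in layers, from the centromeric nucleosome and the DNA-binding CBF3 complex, through the COMA and MIND linkers, to the NDC80 complex and the DASH ring that grip the microtubule. The IPL1 (Aurora B) kinase complex releases faulty attachments, and the MAD, BUB and MPS1 proteins delay anaphase until every chromosome is attached. The plasmids of the screen are themselves centromeric, so each is segregated by a kinetochore of its own.

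The screen asked which genes, when present on an extra low-copy plasmid with their native flanking sequence (the MoBY library), change the abundance of viable cells during long stationary culture. Hosts were haploid MATa ho derivatives of the oak-soil isolate YPS1009, which both carried a NatMX marker at an intergenic site of chromosome XII. AGY1611 was the euploid strain, and AGY1612 carried in addition a his3 deletion and a duplicated chromosome XII marked with His3MX6 and NatMX (YPS1009_Chr12). Samples are labelled by strain number alone, and the ploidy is known from the methods. Each strain was sampled as the starting pool (T0), at day 1 and at day 28 of culture in YPD with G418, which selects for the plasmid, in 3 replicates each. The replicates came from 2 separate transformations of the library, and which replicates share one is not given, so p-values measure only the spread between these samples. Day 1 and day 28 cells were first grown on selective plates, so these libraries hold cells that formed colonies, and T0 differs from them by this plating as well as by age. Each strain is 1 derivative, so the duplicated chromosome and the other marked differences between the strains cannot be told apart.

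Abundances below are in CPM, counts per 1000000 of the TMM-scaled library size. The libraries held 6138798 to 6298768 counts at T0 in AGY1611 and 3491412 to 5211070 in AGY1612, and between 503569 and 1925967 at the later times. The coefficient of variation between replicates, estimated over all plasmids, was 6.39% (AGY1611) and 12% (AGY1612) at T0, against 67.7% to 82.3% at day 1 and day 28. T0 replicate 1 of AGY1612 stood apart from replicates 2 and 3, with chi-square values per degree of freedom of 12 and 15.9 against 1.86 between the other two, and calls that depend on it are given without it below. At T0 the member plasmids had means of 9.93 to 393 CPM, with 41 to 2792 counts per library. In edgeR none differed between the strains at an FDR below 0.1 or at an unadjusted p below 0.05. The same held for all 4508 plasmids, of which 0 passed either threshold. The fit shares 1 spread with the more variable later libraries, so this test cannot show that the starting pools were equal. Members together made up 0.600% ± 0.00434 of the counts in AGY1611 and 0.604% ± 0.0107 in AGY1612 at T0 (SD, n = 3). At day 28 this share was 0.621% ± 0.0277 and 0.591% ± 0.0897.

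At day 28 the group did not move as a block. Plasmids of NNF1, DUO1, MPS1 and MCM16 fell in both strains, and NNF1 was down to a single count in the 6 libraries. Plasmids of SKP1 and AME1 rose in both strains, by 0.90 to 1.26 on the log2 scale, and CTF19 rose in AGY1612. Of these, the SKP1 call in AGY1611 lay at the threshold (FDR 0.0997) and was kept in 2 of 10 other settings. The AME1 call in AGY1612 was kept in 5 of 10. Another 5 plasmids fell in 1 strain, namely CBF2, ASK1 and BUB3 plasmid 2 in AGY1612, and SLI15 and BUB3 plasmid 1 in AGY1611. The remaining 24 of 36 member plasmids passed the test in neither strain, beside 3332 of all 4508 plasmids. Over all plasmids, 94 were higher in both strains. A call in AGY1612 alone was made for 517 of them, and in AGY1611 alone for 278.

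The calls are from edgeR's quasi-likelihood test over all 4508 plasmids at an FDR below 0.1. In AGY1612, 10 of 36 members (27.8%) were called at day 28 against T0, 3 higher and 7 lower, where 19.9% of all plasmids were called, 6.99% higher and 12.9% lower. In AGY1611, 8 of 36 (22.2%) were called, 2 higher and 6 lower, where 14.6% of all were called, 5.12% higher and 9.49% lower. Lower calls made up 19.4% of the members in AGY1612 and 16.7% in AGY1611. In both strains, 4 of 36 members were lower, beside 284 of all 4508 plasmids (6.3%). The member shares lie above those of all plasmids, and the difference was not tested. Nothing is read from these shares about the list as a whole. The median log2(fold change) of the members was -0.15 in AGY1612 and 0.23 in AGY1611, beside 0.19 and 0.16 over all plasmids. The split into higher and lower calls depended on the scaling. With RLE factors it was 2 to 7 in AGY1612 and 1 to 6 in AGY1611, and with total counts 1 to 8 and 1 to 6, as the median of all plasmids then moved down by 0.15 to 0.29.

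**Figure D1:**
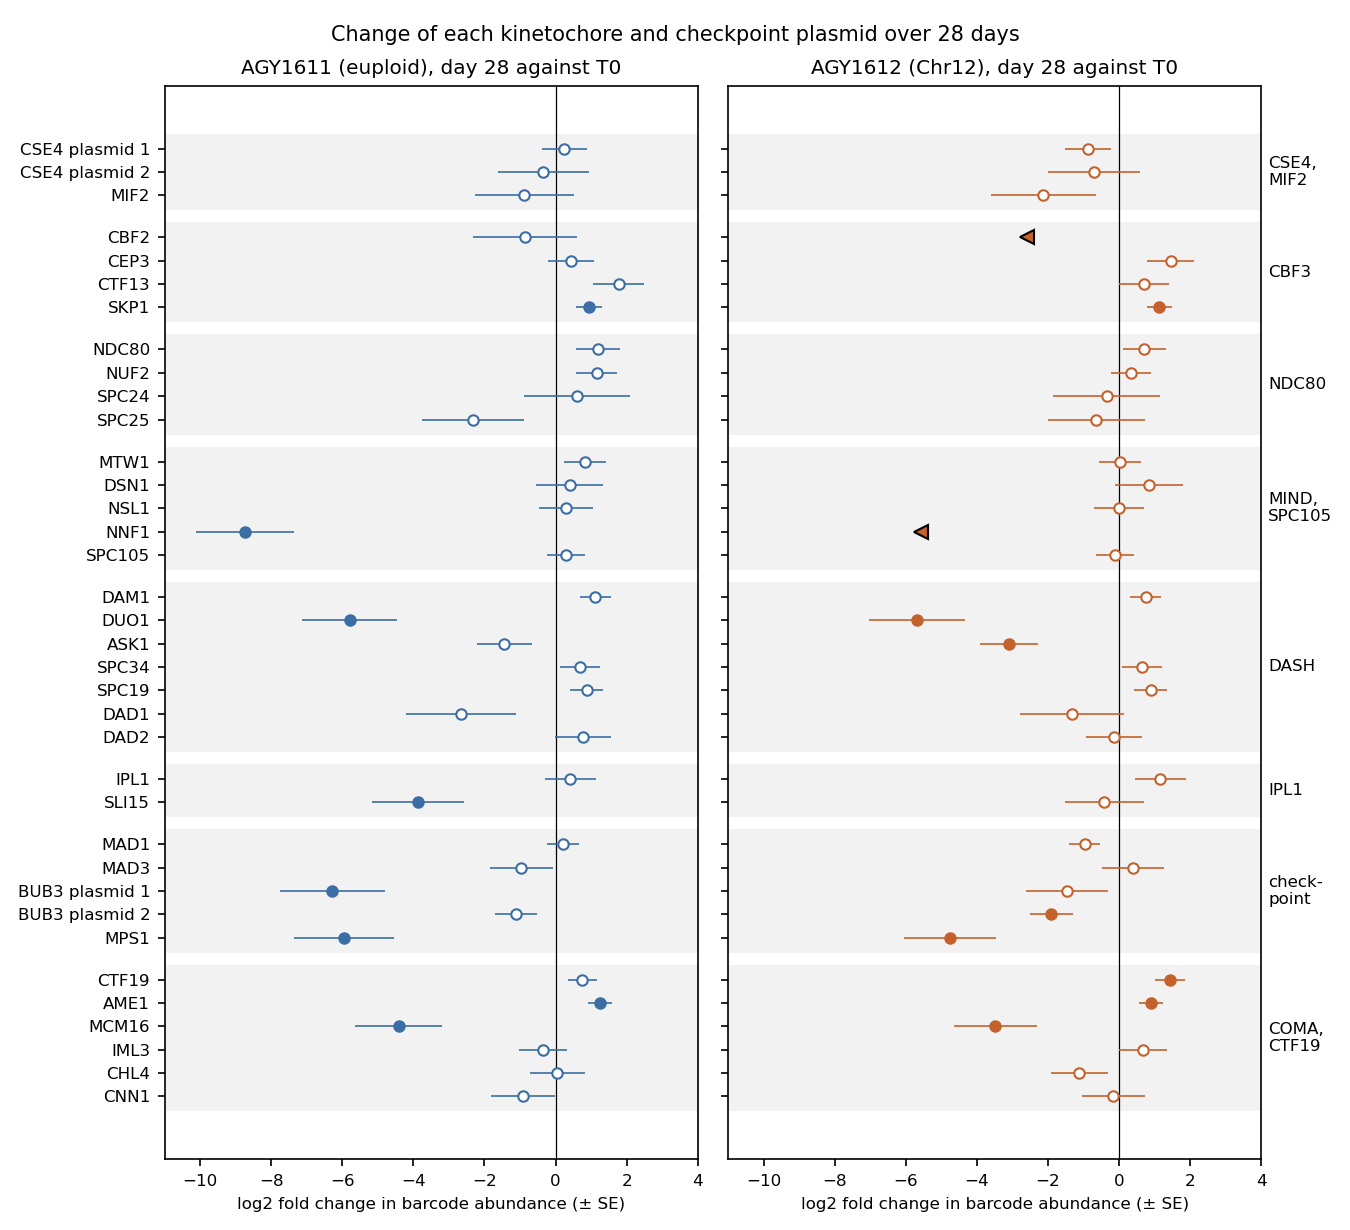
Log2 fold change in barcode abundance of the 36 tested member plasmids at day 28 against T0, with bars of ± 1 SE, for AGY1611 (left) and AGY1612 (right), ordered by subcomplex; filled points passed an FDR of 0.1. Left-pointing triangles (CBF2 and NNF1 in AGY1612) are upper bounds on the change for plasmids with 0 counts in all 3 libraries, and the NNF1 point in AGY1611 is a fitted value that rests on 1 count. Most points lie between -3 and 2, with NNF1, DUO1, MPS1 and MCM16 far to the left in both strains.

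The innermost layer showed no call. CSE4 encodes the histone H3 variant of the centromeric nucleosome, and MIF2 the CENP-C protein that binds it. CSE4 plasmid 1 (YKL049C) changed by -0.86 ± 0.65 (SE) in AGY1612 (FDR 0.413) and by 0.25 ± 0.64 in AGY1611 (FDR 0.851), and plasmid 2 by -0.70 ± 1.30 (FDR 0.759) and -0.35 ± 1.28 (FDR 0.897). The 2 plasmids thus gave values of the same order in AGY1612, within wide errors. In AGY1611 at day 28, plasmid 1 stood at 611, 85.2 and 95.4 CPM in replicates 1 to 3, and plasmid 2 at 79.5, 5.27 and 15.1, so that replicate 1 was the highest for both. MIF2 (YKL089W), the lowest p of this layer, stood at 0, 0 and 15.1 CPM at day 28 in AGY1612 from 29.4, 22.9 and 16.8 at T0, a change of -2.13 ± 1.47 (FDR 0.367).

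The CBF3 complex binds the centromere sequence itself, and its plasmids moved in both directions. CBF2 (YGR140W), also called NDC10, encodes the subunit on which the rest of the centromere assembly depends. Its plasmid in AGY1612 had 21.2, 27.0 and 23.8 CPM at T0, 5.52, 7.55 and 0 at day 1, and 0 in all 3 libraries at day 28. In AGY1611 it had 26.9, 29.0 and 27.2 CPM at T0, 8.64, 19.0 and 38.7 at day 1, and 0, 0 and 46.9 at day 28. The plasmid was thus gone from all AGY1612 libraries at day 28 and from 2 of 3 in AGY1611, where the third held more than any T0 library. Taking a floor of 3 counts per library, averaged over the group, CBF2 was at least 5.98-fold lower in AGY1612 (FDR 0.0347). Complete absence at day 28 was found for 2.8% of all plasmids in AGY1612. The change in AGY1611 was -0.86 ± 1.46 (SE, FDR 0.760). Without AGY1612 day 28 replicate 2 the call was lost (FDR 0.102).

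SKP1 (YDR328C) encodes a CBF3 subunit that also serves as the adaptor of SCF ubiquitin ligases. In AGY1612 its plasmid rose from 304, 308 and 294 CPM at T0 to 636, 621 and 733 at day 28, with 765, 354 and 455 at day 1. AGY1611 gave 297, 305 and 307 CPM at T0, 348, 541 and 743 at day 1 and 420, 838 and 486 at day 28. All 12 later libraries lay above all 6 T0 libraries, and SKP1 was higher in 3 of 3 replicates of each strain. The change at day 28 was 1.14 ± 0.36 (SE, FDR 0.0378) in AGY1612 and 0.94 ± 0.35 (FDR 0.0997) in AGY1611. The AGY1612 call was lost with total counts (FDR 0.114) and without T0 replicate 1, 2 or 3 (FDR 0.112, 0.113 and 0.125). The AGY1611 value lies at the threshold, and with the replicate number as a block it was 0.89 (FDR 0.115). It was lost in 8 of 10 other settings, and without T0 replicate 1, 2 or 3 or day 28 replicate 2, with the FDR between 0.243 and 0.394 in these 4 fits and a change of 0.58 without the last. The other CBF3 genes, CEP3 and CTF13, passed in neither strain, although they had the highest member values. CTF13 changed by 1.77 ± 0.72 (SE, FDR 0.127) in AGY1611 and 0.70 ± 0.70 (FDR 0.548) in AGY1612. Its day 28 libraries all lay above T0 in both strains. CEP3 changed by 1.45 ± 0.65 (FDR 0.150) in AGY1612, with 142, 196 and 1370 CPM at day 28, and by 0.43 ± 0.64 (FDR 0.723) in AGY1611.

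**Figure D2:**
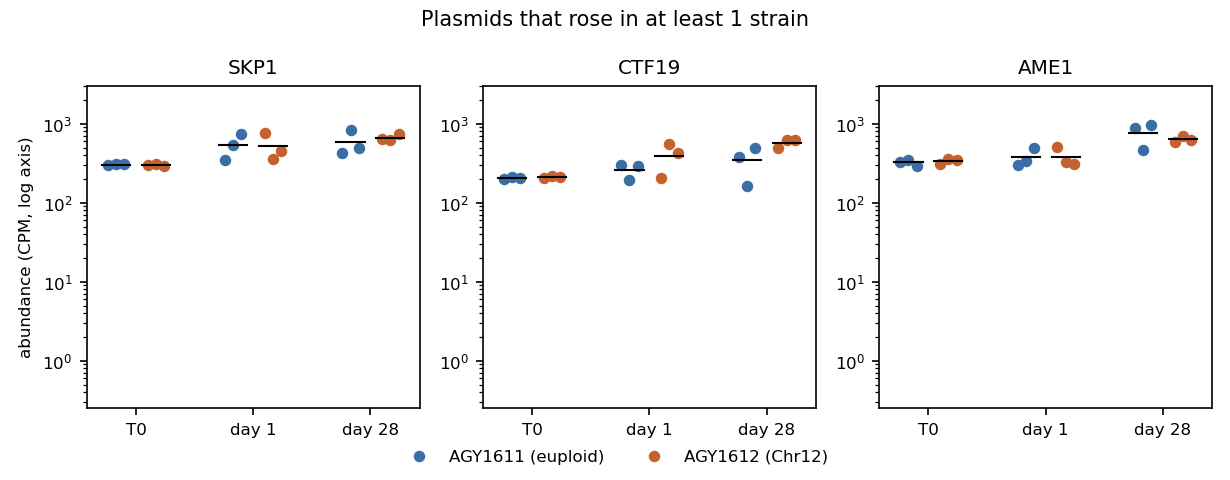
Abundance in CPM (log axis) of the SKP1, CTF19 and AME1 plasmids in each library at T0, day 1 and day 28, blue for AGY1611 and orange for AGY1612, with a black line at the mean of 3 libraries. The AGY1612 day 28 libraries lie above the T0 libraries for all 3 plasmids, and for CTF19 in AGY1611 1 of 3 day 28 libraries lies below them.

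The NDC80 complex, the main microtubule-binding rod of the outer kinetochore, had no call among its 4 plasmids. Its changes lay between -0.64 and 0.71 in AGY1612 and between -2.32 and 1.18 in AGY1611. NUF2 (YOL069W), which pairs with NDC80 in the globular head, had the lowest p of the complex, with a change of 1.16 ± 0.58 (SE, FDR 0.219) in AGY1611 and 0.34 ± 0.57 (FDR 0.736) in AGY1612. Its day 28 libraries in AGY1611, at 200, 684 and 245 CPM, all lay above those at T0, at 182, 166 and 157. In AGY1612 they stood at 394, 130 and 148 CPM against 163, 176 and 190, and overlapped.

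The MIND complex (MTW1, DSN1, NSL1 and NNF1) links the inner to the outer kinetochore, and SPC105 (KNL1) is the platform on which checkpoint proteins gather. Only NNF1 (YJR112W) was called among these 5 plasmids. In AGY1612 the NNF1 plasmid had 200, 188 and 182 CPM at T0, 23.2, 23.7 and 0.859 at day 1 and 0 in all 3 libraries at day 28. In AGY1611 it had 180, 177 and 177 CPM at T0, 39.3, 41.2 and 17.7 at day 1 and 0, 0 and 1.51 at day 28. All later libraries lay below T0 in both strains. In AGY1611 those at day 28 lay below those at day 1, and in AGY1612 day 1 replicate 3, with 1 read, cannot be ordered against day 28. NNF1 was at least 47.4-fold lower at day 28 in AGY1612 (floor as above, FDR 0.000333). In AGY1611, where 1 read was left, the ratio of the mean T0 CPM to the day 28 reads pooled over the 3 libraries was 517, with an exact 95% counting interval on that read of 92.8 to 20419 (FDR 0.000627). The ratio of the mean CPM values of the libraries was 353. Such intervals cover counting error only, because PCR reads without molecular identifiers are not independent molecules.

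NNF1 was the one member that also passed the test between other times. At day 1 against T0 it fell by 3.56 ± 0.96 on the log2 scale (SE, FDR 0.0841) in AGY1612, and its change was -2.44 ± 0.92 (FDR 0.212) in AGY1611. From day 1 to day 28 it fell in both strains, from means of 15.9 to 0 CPM in AGY1612 (FDR 0.0320) and of 32.8 to 0.505 CPM in AGY1611 (FDR 0.0382). The day 1 call was lost whichever of the 6 libraries compared was left out, with the FDR between 0.106 and 0.268. The day 28 against day 1 calls were lost without AGY1612 day 28 replicate 2 or 3 (FDR 0.146 and 0.101) and without AGY1611 day 28 replicate 1 or 2 (FDR 0.135 and 0.157). Over all plasmids, 2.28% had at most 3 counts in each of the 6 day 28 libraries, and NNF1 was the member among them.

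The other 4 plasmids of this layer, those of MTW1, DSN1, NSL1 and SPC105, passed in neither strain. Their changes lay between -0.12 and 0.85 in AGY1612 and between 0.29 and 0.83 in AGY1611.

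The DASH complex forms a ring around the microtubule and couples the kinetochore to its growing and shrinking end. Among its 7 plasmids, DUO1 fell in both strains and ASK1 in AGY1612, while the others, DAM1, SPC34, SPC19, DAD1 and DAD2, passed in neither. DUO1 (YGL061C) had 70.4, 92.8 and 82.2 CPM at T0 in AGY1612, 23.2, 10.8 and 2.58 at day 1, and 2.05, 2.62 and 0 at day 28. In AGY1611 it had 94.0, 91.1 and 92.1 CPM, then 20.2, 21.1 and 8.85, then 4.52, 0 and 0. Every later library lay below every T0 library. The change at day 28 was -5.69 ± 1.35 (SE, FDR 0.00977) in AGY1612 and -5.80 ± 1.33 (FDR 0.00865) in AGY1611, where all 5 reads left came from replicate 1.

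ASK1 (YKL052C) started from 204, 216 and 208 CPM in AGY1612 and stood at 71.2, 159 and 18 at day 1 and 22.6, 39.3 and 10.8 at day 28. In AGY1611 the plasmid had 207, 205 and 184 CPM at T0, 37.4, 90.9 and 118 at day 1 and 30.7, 36.0 and 154 at day 28. All later libraries were below T0 in both strains. It fell by 3.10 ± 0.82 on the log2 scale (SE, FDR 0.0172) in AGY1612. The change in AGY1611 was -1.44 ± 0.77 (FDR 0.254). DAD1, with 15.1 to 20.2 CPM at T0, had the lowest value among the members that were not called in AGY1611, at -2.66 ± 1.56 (FDR 0.306).

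**Figure D3:**
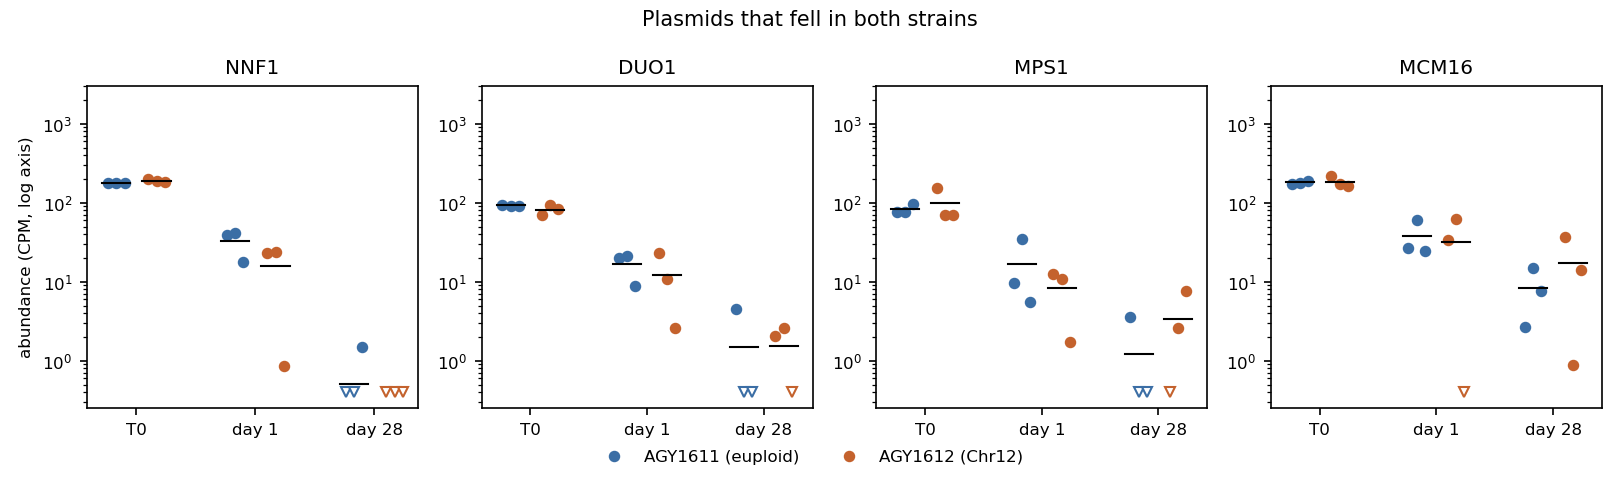
Abundance in CPM (log axis) of the NNF1, DUO1, MPS1 and MCM16 plasmids in each library at T0, day 1 and day 28, blue for AGY1611 and orange for AGY1612, with a black line at the mean of 3 libraries. Open triangles at the bottom are libraries with 0 counts. The day 1 means lie between those of T0 and day 28, and NNF1 has 0 counts in 5 of 6 day 28 libraries.

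The IPL1 complex pairs the Aurora B kinase IPL1 with its activating scaffold SLI15 (INCENP). The IPL1 plasmid was not called. SLI15 (YBR156C) in AGY1611 had 33.8, 30.6 and 35.0 CPM at T0, 2.88, 8.46 and 3.32 at day 1, and 6.32, 0 and 0 at day 28. In AGY1612 it had 26.1, 32.5 and 31.4 CPM, then 38.1, 26.4 and 14.6, then 28.7, 35.8 and 3.24. The plasmid was low in all 6 later AGY1611 libraries, and in AGY1612 the later libraries overlapped those at T0. The change at day 28 was -3.87 ± 1.29 (SE, FDR 0.0615) in AGY1611 and -0.41 ± 1.11 (FDR 0.836) in AGY1612. The AGY1611 call was lost without T0 replicate 1, 2 or 3 or day 28 replicate 2 or 3, with the FDR between 0.132 and 0.150, and replicate 1 held all 7 of the reads left at day 28.

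Of the checkpoint genes, MPS1 and BUB3 were called, and MAD1 and MAD3 were not. MPS1 (YDL028C) encodes a kinase that starts the checkpoint signal and is also needed to duplicate the spindle pole body. Its plasmid had 77.1, 76.7 and 96.6 CPM at T0 in AGY1611, 9.60, 34.9 and 5.53 at day 1 and 3.61, 0 and 0 at day 28. In AGY1612 it had 155, 70.8 and 69.9 CPM, then 12.7, 10.8 and 1.72, then 0, 2.62 and 7.57. Later libraries lay below all T0 libraries in both strains. T0 replicate 1 of AGY1612 was higher than the other two of its group. The change was -5.95 ± 1.41 (SE, FDR 0.0108) in AGY1611 and -4.75 ± 1.30 (FDR 0.0200) in AGY1612, and -4.27 (FDR 0.0741) in AGY1612 without T0 replicate 1.

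BUB3 (YOR026W) encodes the WD40 protein that brings BUB1 and MAD3 to the kinetochore, and each of its plasmids was called in 1 strain, plasmid 1 in AGY1611 and plasmid 2 in AGY1612. Plasmid 1 in AGY1611 had 130, 136 and 125 CPM at T0, 25, 38.1 and 7.74 at day 1 and 4.52, 0 and 0 at day 28. In AGY1612 plasmid 1 had 128, 142 and 135 CPM, then 20.4, 96.0 and 27.5, then 119, 30.6 and 0. AGY1612 day 28 replicate 1 was thus near its T0 level, while replicate 3 had no read. The change of plasmid 1 was -6.28 ± 1.49 (SE, FDR 0.0110) in AGY1611, where replicate 1 held all 5 reads left, and -1.46 ± 1.15 (FDR 0.434) in AGY1612.

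BUB3 plasmid 2 in AGY1612 had 331, 284 and 281 CPM at T0, 308, 93.9 and 192 at day 1 and 140, 65.5 and 36.8 at day 28. In AGY1611 plasmid 2 had 305, 283 and 313 CPM, then 156, 132 and 209, then 145, 35.1 and 238. It remained present in every library, and its day 28 libraries were below T0 in both strains. The change was -1.91 ± 0.61 (SE, FDR 0.0408) in AGY1612 and -1.11 ± 0.59 (FDR 0.255) in AGY1611. The call was lost without AGY1612 T0 replicate 1 (FDR 0.112) or day 28 replicate 2 or 3 (FDR 0.122 and 0.124). Both BUB3 plasmids thus had negative values in both strains, of different size, and whether they differ from each other was not tested.

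**Figure D4:**
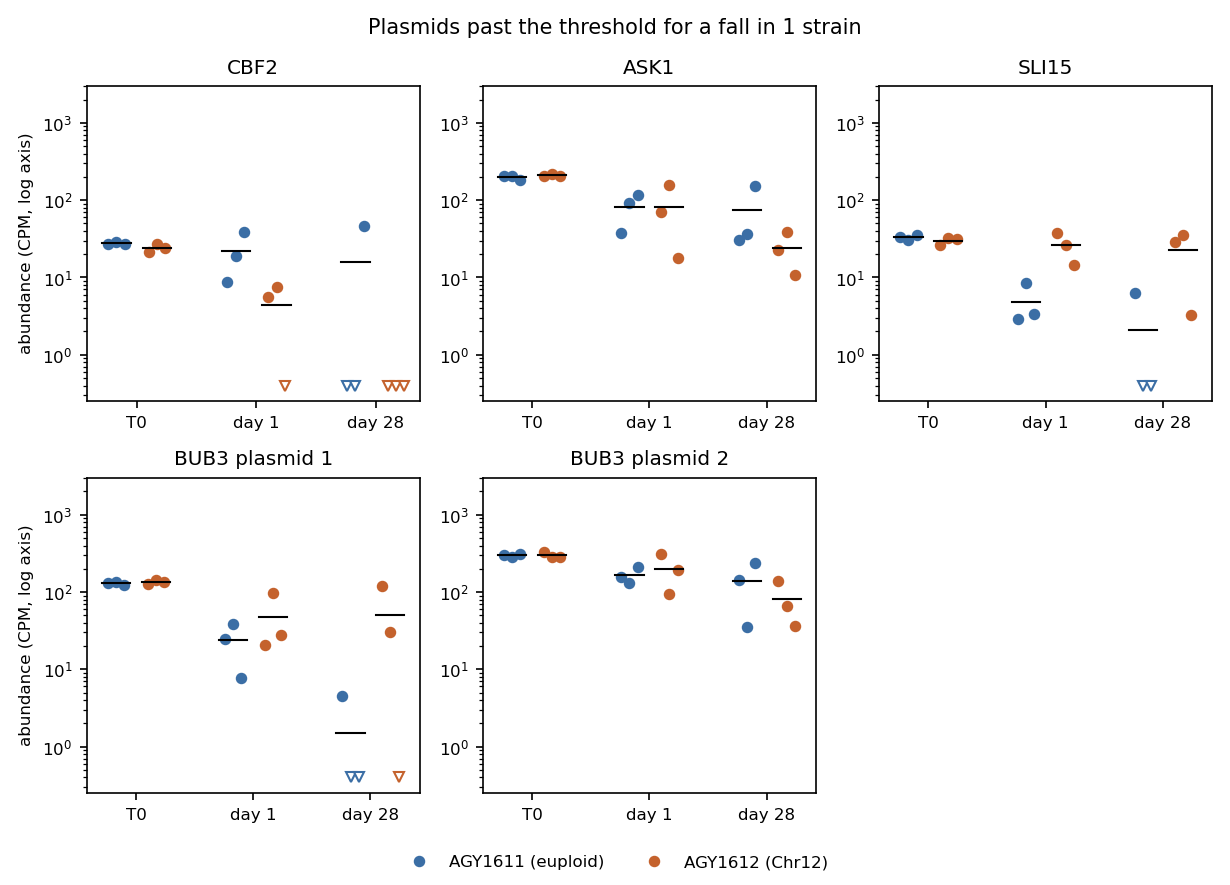
Abundance in CPM (log axis) of the CBF2, ASK1, SLI15 and both BUB3 plasmids in each library at T0, day 1 and day 28, blue for AGY1611 and orange for AGY1612, with a black line at the mean of 3 libraries. Open triangles at the bottom are libraries with 0 counts. For SLI15 the later AGY1611 libraries all lie at or below 8.46 CPM and 1 later AGY1612 library, at 3.24, falls among them, and for CBF2 1 AGY1611 day 28 library at 46.9 CPM stands above T0 while the other 5 day 28 libraries have no read.

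The COMA and CTF19-linked proteins form the inner linker. Of their 6 plasmids, 3 were called in AGY1612, where 19.9% of all plasmids were, and 2 in AGY1611, where 14.6% were. With 6 plasmids, nothing is read from these counts about the group. CTF19 and AME1 are both subunits of COMA, and of these AME1 is essential. CTF19 (YPL018W) in AGY1612 had 208, 217 and 213 CPM at T0, 208, 551 and 421 at day 1 and 493, 617 and 619 at day 28. In AGY1611 it had 200, 209 and 204 CPM, then 297, 196 and 289, then 374, 163 and 497. The day 28 libraries were all above T0 in AGY1612, and 2 of 3 were in AGY1611. The change was 1.44 ± 0.41 (SE, FDR 0.0265) in AGY1612 and 0.75 ± 0.41 (FDR 0.269) in AGY1611.

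AME1 (YBR211C) in AGY1611 had 331, 344 and 295 CPM at T0, 300, 333 and 497 at day 1 and 889, 468 and 960 at day 28. In AGY1612 it had 310, 359 and 352 CPM, then 504, 324 and 306, then 595, 691 and 621. Day 1 libraries overlapped T0 in both strains, and all day 28 libraries lay above T0. The change at day 28 was 1.26 ± 0.33 (SE, FDR 0.0211) in AGY1611 and 0.90 ± 0.33 (FDR 0.0741) in AGY1612. The AGY1611 call was lost without T0 replicate 3 (FDR 0.101). The AGY1612 call was lost in 5 of 10 other settings, which were RLE factors (FDR 0.140), total counts (FDR 0.267), no filter (FDR 0.117), each strain fitted alone (FDR 0.135) and a threshold of 0.05, and without T0 replicate 1, 2 or 3 or day 28 replicate 2 (FDR 0.156 to 0.221).

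MCM16 (YPR046W) encodes a nonessential protein that works with CTF3 in this group. In AGY1611 its plasmid had 175, 178 and 190 CPM at T0, 26.9, 61.3 and 24.3 at day 1 and 2.71, 14.9 and 7.57 at day 28. In AGY1612 it had 219, 173 and 165 CPM, then 33.7, 61.5 and 0, then 36.9, 0.873 and 14.1. All later libraries were far below T0. The change was -4.41 ± 1.22 (SE, FDR 0.0272) in AGY1611 and -3.49 ± 1.17 (FDR 0.0523) in AGY1612. The AGY1612 call was lost without T0 replicate 1, 2 or 3 or day 28 replicate 2 or 3, with the FDR between 0.103 and 0.137. The neighbours IML3, CHL4 and CNN1 passed in neither strain, with changes between -1.12 and 0.68 in AGY1612 and between -0.92 and 0.05 in AGY1611.

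At day 1 little of this passed the test. In AGY1612 NNF1 was the 1 member called, where 2.86% of all plasmids were and 1.75% were lower, and in AGY1611 0 members were called, where 0.288% were. At an unadjusted p below 0.05 there were 7 members (19.4%) in each strain, beside 21% of all plasmids in AGY1612 and 16.5% in AGY1611. The plasmids that fell in both strains at day 28 were already lower at day 1 by the estimate, at -2.73 ± 1.10 (SE, AGY1612) and -2.46 ± 1.10 (AGY1611) for DUO1, without passing the test. For MPS1 the day 1 values were -3.53 ± 1.19 and -2.32 ± 1.14, and for MCM16 -2.54 ± 1.10 and -2.27 ± 1.10. In CPM, 12 members (33.3%) had all 3 day 1 libraries below all 3 T0 libraries in AGY1612, beside 25.9% of all plasmids, and 15 (41.7%) in AGY1611, beside 26.8%. At day 28 this count was 10 (27.8%) in each strain, beside 27.3% (AGY1612) and 25.4% (AGY1611) of all plasmids. All 3 day 28 libraries lay above T0 for 6 members (16.7%) in AGY1612, beside 21.1% of all, and for 8 (22.2%) in AGY1611, beside 20.8%.

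Between day 1 and day 28 NNF1 was again the 1 member called in each strain, where 1.53% of all plasmids were called in AGY1612, 1.29% as lower, and 0.954% in AGY1611, 0.932% as lower. The count of libraries without a read grew over the same interval. At day 1, 4 of 108 member values in AGY1612 (3.7%) and 2 of 108 in AGY1611 (1.85%) were 0, and at day 28 14 (13%) and 18 (16.7%) were. Over all tested plasmids the shares were 2.37% and 1.46% at day 1 and 7.89% and 9.5% at day 28.

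Whether the strains responded differently was tested as the change in AGY1612 minus the change in AGY1611. No member passed this test at day 28, where 0.266% of all plasmids did, nor at day 1, where 0% did, and DESeq2 likewise called 0 members at either time. An unadjusted p below 0.05 was found for 3 members (8.33%) at day 28 and 2 (5.56%) at day 1, beside 6.94% and 3.82% of all plasmids. The 3 at day 28 were BUB3 plasmid 1 (difference 4.82 ± 1.79, SE, FDR 0.562), SLI15 (3.46 ± 1.66, FDR 0.715) and CBF2 (FDR 0.594), whose size cannot be given because AGY1612 had no read. A call in 1 strain and not the other, as for ASK1 or CTF19, is therefore not shown to be a difference between the strains. Across the 36 plasmids the day 28 changes of the strains correlated with r = 0.74, beside 0.66 over all plasmids, as a description of plasmids that share a library and are not replicates. The sign was opposite for 8 of 36 members (22.2%) and for 24.9% of all plasmids.

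Falls were seen among genes that the laboratory strain needs to live and among those it does not. Of 26 tested genes that are essential there, 6 had a plasmid that fell in at least 1 strain (NNF1, DUO1, MPS1, CBF2, ASK1 and SLI15). Of 8 that are not, 2 did (BUB3 and MCM16). By plasmid, 18.5% of the essential and 22.2% of the nonessential members were called lower in AGY1612, beside 12.9% of all plasmids. In AGY1611 these shares were 14.8% and 22.2%, beside 9.49% of all. With 27 essential and 9 nonessential plasmids, nothing is read from these shares. The genes that fell were 546 to 2871 bp long and the other tested genes 285 to 2754 bp, so their lengths overlapped. No tested member lies on chromosome XII, the chromosome duplicated in AGY1612.

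For comparison, 30 genes that work beside the kinetochore were listed from textbook knowledge, namely further centromere proteins, motors and other microtubule-binding proteins, and regulators of anaphase. Of their 27 tested plasmids (25 genes), 1 was higher and 6 were lower in AGY1612 (25.9% called, beside 19.9% of all plasmids). In AGY1611 1 was higher and 5 were lower (22.2%, beside 14.6% of all). The medians were 0.27 in AGY1612 and -0.21 in AGY1611. In both strains, 3 of the 27 fell, beside 284 of all 4508 plasmids (6.3%). These shares were not tested against each other, and nothing is read from them. KIP1 (YBL063W), a kinesin-5 motor that pushes the spindle poles apart, stood at 90.7, 100 and 102 CPM at T0 in AGY1612 and 2.05, 0 and 0 at day 28, and at 95.4, 101 and 98.0 and then 0, 0 and 4.54 in AGY1611. Its ratio of mean T0 CPM to pooled day 28 reads was 249.7 in AGY1612 (exact 95% counting interval 44.8 to 9861, FDR 0.00786) and 95.2 in AGY1611 (32.6 to 461, FDR 0.0148), and the ratios of mean CPM were 143 and 64.9. BUB2 (YMR055C), part of the checkpoint on spindle position, was at least 3.48-fold lower in AGY1611 (FDR 0.0345) and 28.0-fold lower in AGY1612 by pooled reads (interval 5.03 to 1107, FDR 0.0779). Plasmid 1 of KAR3 (YPR141C), a minus-end-directed kinesin-14, had no read at day 28 in either strain (in AGY1611 this held for 2.55% of all plasmids) and was at least 1.77-fold (AGY1612, FDR 0.0433) and 1.92-fold lower (AGY1611, FDR 0.0520).

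Others of these neighbours were called in 1 strain, 4 of 27 plasmids in AGY1612 and 3 in AGY1611. Over all 4508 plasmids these counts were 517 and 278. The 6 with the lowest p are given, and then the 1 call left. ESP1, the separase that cuts cohesin, fell by 4.10 ± 0.90 on the log2 scale in AGY1612 (SE, FDR 0.00607), with -2.10 ± 0.81 in AGY1611 (FDR 0.105). KAR3 plasmid 2 fell by 1.54 ± 0.53 in AGY1612 (FDR 0.0585). The 1 call left was BIM1 plasmid 2, at -1.71 ± 0.63 in AGY1612 (FDR 0.0728) and -0.45 ± 0.61 in AGY1611 (FDR 0.687). BIM1 plasmid 1 had the opposite sign, at 0.91 ± 0.48 (FDR 0.234) and 1.28 ± 0.49 (FDR 0.102). In AGY1611 the CLIP-170 homologue BIK1 fell by 3.56 ± 1.09 (FDR 0.0430), with 62.3, 0 and 0 CPM at day 28. Its change in AGY1612 was -0.75 ± 0.98 (FDR 0.651). Plasmid 2 of KIP3, a kinesin-8 that shortens microtubules, was at least 5.62-fold lower in AGY1611 (FDR 0.0352). KIP3 plasmid 1 had too few counts to be tested. In AGY1611 it had 2.15, 2.56 and 1.81 CPM at T0 and 5.42, 24.6 and 0 at day 28. Higher calls were made for KRE28, the partner of SPC105, in AGY1611 (1.03 ± 0.32, FDR 0.0445) and for SGT1, a co-chaperone that helps to assemble CBF3, in AGY1612 (1.30 ± 0.45, FDR 0.0595).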

How the data were processed

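The authors sequenced plasmid barcodes and deposited raw counts, with a row for each plasmid and a column for each library. The program used for counting and the genome build are not given in the sources used here. All 18 columns were used, and 0 sample columns were left out. Gene names, lengths and chromosomes came from RefSeq (R64), which matched 4865 of 4872 rows. Rows with too few counts were filtered by group (filterByExpr), which left 4508 plasmids. The fit used TMM scaling and edgeR 4.0.16 (R 4.3.3) quasi-likelihood tests, with 1 coefficient per group over all 18 libraries and two-sided p-values adjusted by Benjamini-Hochberg (FDR below 0.1). The SE is the change divided by the square root of F. A trial of the fit on simulated counts gave all groups the same spread, so it cannot test the unequal spread seen here.

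Genes were named if called in any comparison, untested, the lowest p of a subcomplex without a call, or present as 2 plasmids. Of the neighbouring genes, those called in both strains and the next 6 by p were named. BIM1 was added as the 1 call left. Members, lists and tests were chosen with earlier results of these data known. Alternatives were RLE and total-count scaling, no filter, a filter of 50 counts in each T0 library, DESeq2 1.42.0, limma 3.58.1 with group weights, each strain or only the compared groups fitted, a replicate block, FDR below 0.05 and each library left out. Replicate numbers come from the sample titles. Deviations of same-numbered day 1 and day 28 libraries, which are the same cultures, correlated (r 0.145 to 0.504), and those with T0 did not (r -0.07 to 0.11). The main fit leaves this pairing out, also for day 28 against day 1. The replicate block uses it, but ties the T0 libraries to the replicate numbers as well. No replicate pair matched within sampling noise (chi-square per degree of freedom at least 1.86), and each library was kept as a sample. Because PCR reads are not independent molecules, this cannot show whether the T0 libraries are separate samples or repeat preparations of 1 pool.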

Additional observations from a re-analysis of the deposited data

How the results depend on the processing

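Of the 21 calls made on members over all comparisons, 10 were kept whichever library was left out, 13 were kept under every other setting, and 0 changed direction. The calls for NNF1, DUO1 and MPS1 at day 28 in both strains, ASK1 and CTF19 in AGY1612, and BUB3 plasmid 1 and MCM16 in AGY1611 were kept in all of these fits. Lower calls at day 28 numbered 7 in AGY1612 (5 to 8 with a library left out) and 6 in AGY1611 (5 to 8), and no other setting moved them by over 1.5 times. Higher calls in AGY1612, 3, became 1 with total counts, and 1 to 4 with a library left out. Those in AGY1611, 2, became 1 with RLE factors, total counts, no filter, DESeq2, the replicate block or an FDR below 0.05, and 0 to 4 with a library left out. The count at day 1 in AGY1612, 1, became 4 with DESeq2, 7 with limma and group weights, 7 when only the groups compared were fitted, 0 with each strain alone or an FDR below 0.05, and 0 to 0 with a library left out. In AGY1611, 0 became 2, 4 and 8 in the first 3 of these, and 0 to 1 with a library left out, the 1 being without day 1 replicate 2. From day 1 to day 28, 1 call in AGY1612 became 0 with limma, each strain alone or only the groups compared (0 to 1 with a library left out). In AGY1611, 1 call became 4 with DESeq2 and 0 with limma or only the groups compared (0 to 1). Differences between strains numbered 0 in all settings. The replicate block changed no other count by over 1.5 times. The cause of these changes was not tested, apart from fewer samples or a stricter threshold.

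A single read was worth 0.873 to 2.05 CPM at day 28 in AGY1612 and 0.879 to 1.51 in AGY1611, so falls below a few CPM could not be ordered. The fit shares 1 spread over all groups, although replicates varied far more at day 28 than at T0.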
